A study of Homo sapiens with 9 samples.

Results

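Most of the genes described here encode nuclear subunits of the mitochondrial respiratory chain and of ATP synthase. Some related genes with matching symbols are counted with them. Among these are the inhibitor ATP5IF1, the readthrough transcript ATP5MF-PTCD1, the paralogue ATP5MGL and the retrocopy UQCRHL. All were chosen by a rule on gene symbol that used no signal, though earlier results of these data were known when it was set. The rule found 78 genes among 17687 named genes on the array. Each had a single transcript cluster, the array's unit of summary for a gene. Complex I had 31 genes, complex II 3, complex III 9, complex IV 17 and complex V, the ATP synthase, 18. Some other genes with such symbols, SDHB, UQCRFS1 and ATP5F1E among them, are not analysed here, and nor are the subunits encoded in mitochondrial DNA.

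The samples were 9 Clariom S arrays of RNA from ACC-MESO-1, an established cell line from a malignant mesothelioma, a cancer that arises in the pleura around the lung. Cells carried shLSD1 #1 (replicates 4 to 6), shLSD1 #2 (replicates 7 to 9) or a control shRNA (replicates 1 to 3), with 3 arrays in each of these 3 groups. LSD1 is a histone demethylase that removes methyl groups from histone H3 lysines. All groups are a single tumour line, the labels give neither the time after infection nor whether replicates are separate cultures, and p-values therefore measure the spread between arrays, which may be technical. The LSD1 transcript itself is not analysed here, and knockdown was taken from the labels.

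In the respiratory chain, complexes I and II pass electrons from NADH and succinate to ubiquinone, complex III passes them to cytochrome c, and complex IV passes them to oxygen. Complexes I, III and IV pump protons across the inner mitochondrial membrane, and ATP synthase uses the gradient to make ATP. Most subunits are encoded in the nucleus, and their promoters are known for sites of NRF1 and of the ETS factor GABP. In mouse fat cells LSD1 has been described as a repressor of genes of energy expenditure, among them Ppargc1a, a coactivator of mitochondrial biogenesis.

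The promoters of 4 members are shown. COX5A fell and COX7C rose most among the members above background, and neither promoter held a match to the motifs searched, whereas SDHD and UQCR11 fell with each hairpin and held matches to both. Each sequence runs from 250 bases before to 50 bases after the annotated start (RefSeq, GRCh38.p14), 5′ to 3′ on the strand of the gene. The windows lie at chr15:74938024-74938323, minus strand (COX5A), chr5:86617691-86617990, plus strand (COX7C), chr11:112086623-112086922, plus strand (SDHD) and chr19:1605413-1605712, minus strand (UQCR11). Capitals mark matches on either strand to the NRF1 consensus motif of 12 bases or to CCGGAAG, an ETS motif of 7 bases. A match on the other strand reads as its reverse complement. Other forms of ETS sites were not searched. The NRF1 and ETS matches shown do not overlap.
COX5A: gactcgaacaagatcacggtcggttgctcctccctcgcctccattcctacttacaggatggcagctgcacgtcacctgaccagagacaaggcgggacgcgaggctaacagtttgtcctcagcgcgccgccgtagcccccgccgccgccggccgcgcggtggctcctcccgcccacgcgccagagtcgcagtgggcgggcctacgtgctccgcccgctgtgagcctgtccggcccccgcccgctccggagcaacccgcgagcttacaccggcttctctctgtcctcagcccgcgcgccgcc
COX7C: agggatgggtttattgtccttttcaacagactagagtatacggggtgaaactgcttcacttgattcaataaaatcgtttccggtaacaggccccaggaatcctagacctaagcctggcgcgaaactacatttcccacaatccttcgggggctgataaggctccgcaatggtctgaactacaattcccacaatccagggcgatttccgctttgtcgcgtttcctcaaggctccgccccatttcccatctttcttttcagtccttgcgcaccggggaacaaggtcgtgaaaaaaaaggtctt
SDHD: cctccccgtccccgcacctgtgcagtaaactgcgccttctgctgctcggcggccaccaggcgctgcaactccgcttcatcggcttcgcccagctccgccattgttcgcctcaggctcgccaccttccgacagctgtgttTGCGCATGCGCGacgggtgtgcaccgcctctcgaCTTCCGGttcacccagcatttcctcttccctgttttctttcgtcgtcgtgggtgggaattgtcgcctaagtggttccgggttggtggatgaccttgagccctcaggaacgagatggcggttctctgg
UQCR11: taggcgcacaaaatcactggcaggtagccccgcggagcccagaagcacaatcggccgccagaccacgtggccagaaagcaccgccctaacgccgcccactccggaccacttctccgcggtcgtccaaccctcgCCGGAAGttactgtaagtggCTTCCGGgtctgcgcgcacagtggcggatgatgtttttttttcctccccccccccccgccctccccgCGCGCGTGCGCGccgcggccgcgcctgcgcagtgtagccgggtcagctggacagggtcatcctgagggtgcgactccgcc

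Sequences were at hand for 62 of the 78 members. The NRF1 consensus occurred in 5 of these promoters (8.06%), against 1.59% of 27305 promoters of the same length. A looser form of 10 bases with 1 free base, searched first, occurred in 15 of the 62 (24.2%), against 6.28% of all promoters. The ETS motif CCGGAAG occurred in 17 of the 62 (27.4%), against 10.7% of all promoters. The median log2 change of the 5 members with the NRF1 consensus was -0.18 with shLSD1 #1 and 0.13 with shLSD1 #2, and that of the 57 without was -0.21 and -0.089. For the 17 members with CCGGAAG the medians were -0.42 and -0.23, and for the 45 without this motif, -0.16 and -0.044. Of the promoters shown, that of COX5A had 70.7% G and C and that of COX7C 49%.

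The deposited values are log2 signals after robust multi-array averaging (RMA). A gene counted as above background on an array where it exceeded the 95th percentile of 612 negative control probe sets, which lay between 6.93 and 7.54. On this measure 70 members were above background on all 9 arrays and 7 on none, and NDUFS7 was above it on 1. Hybridization spike-ins, transcripts of bacterial and phage origin added before hybridization, split the arrays into 5 of high and 4 of low signal. Their mean was 10.80 to 10.84 on shLSD1 #1 arrays, 10.93 to 11.33 on shLSD1 #2 arrays and 11.30 to 11.38 on control arrays, and the low class was the 3 shLSD1 #1 arrays and shLSD1 #2 replicate 8. All control arrays were in the high class, so for shLSD1 #1 the class and the hairpin cannot be told apart except through replicate 8. Among the mesothelial markers, KRT8, KRT18, VIM and MSLN were above background on all 9 arrays, and CALB2 and KRT5 on none. Of 9 markers of other cell types, 8 were below background on every array, PTPRC, PECAM1 and EPCAM among them, and CD68, a lysosomal protein of macrophages, was above it on all and changed by -1.11 and -1.35 with the hairpins. Its part in the results was not tested. In such bulk RNA, fewer cells of a type and less RNA per cell cannot be told apart.

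With shLSD1 #1, 18 of the 78 members fell and 3 rose by limma (adjusted p under 0.05 over all 21448 clusters). Together they are 21 genes, where 15.8% of all clusters and 28.5% of the 9446 clusters whose mean lay above the negative controls passed in either direction. The members that fell came from every complex, with COX5A of complex IV the largest fall among members above background, and COX7C of the same complex was the largest rise. The 18 make up 23.1% of the members, against 7.94% of all clusters lower with this hairpin and 14.7% of the clusters with a mean above the negative controls. The 3 that rose make up 3.85%, against 7.85% and 13.8%. The median log2 change of the members was -0.20, and that of clusters with a mean above the negative controls -0.0027. The 3 hairpin arrays lay below all 3 control arrays for 34 members (43.6%), against 16.8% of all clusters and 27.7% of those with a mean above the negative controls. They lay above the control arrays for 9 members (11.5%), against 18.2% and 27.4%. At an unadjusted p under 0.05, 34 members (43.6%) were lower, against 14% of all clusters and 22.9% of those with a mean above the negative controls, and 5 (6.41%) were higher, against 15% and 22.4%. When spike-in class entered the fit as a block, COX7C alone of these 21 passed, and the median was -0.16. That block moved the shLSD1 #1 change of 14 of the 21 by over 1.5 times, as for UQCR11 (-0.16, adjusted p = 0.797), ATP5F1D (-0.39, 0.439) and ATP5ME (-0.24, 0.627). Some other calls ended though the change did not shrink. COX7B went from -0.59 to -0.72 (0.122), NDUFA1 from -0.56 to -0.60 (0.180) and NDUFB2 from -0.53 to -0.55 (0.235). In that fit replicate 8 alone separates shLSD1 #1 from the class, so its changes are less precise. The calls that the block ended had adjusted p of 0.103 to 0.799.

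With shLSD1 #2, 7 members fell and 2 rose, where 13.2% of all clusters and 24.1% of those with a mean above the negative controls passed in either direction. The 7 make up 8.97%, against 6.63% of all clusters and 12.1% of those with a mean above the negative controls, so this share is near the background. The 2 that rose make up 2.56%, against 6.56% and 12%. The median log2 change was -0.084, against 0.012 for clusters with a mean above the negative controls. The groups did not overlap for 26 members on the lower side (33.3%, against 15.3% of all clusters and 25.2% of those with a mean above the negative controls) and for 12 on the higher side (15.4%, against 16.8% and 26.8%). At an unadjusted p under 0.05, 17 members (21.8%) were lower, against 12.3% and 19.8%, and 10 (12.8%) were higher, against 13.7% and 21.2%. When spike-in class entered the fit as a block, COX5A, NDUFA1 and COX7C passed, the other 6 calls ended (adjusted p = 0.0606 to 0.131) and the median was -0.045. Both hairpins are set against the same 3 control arrays, so their changes are not independent, and the SE of a member's change, which is the same for each, lay between 0.097 and 0.29 with a median of 0.12.

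**Figure D1:**
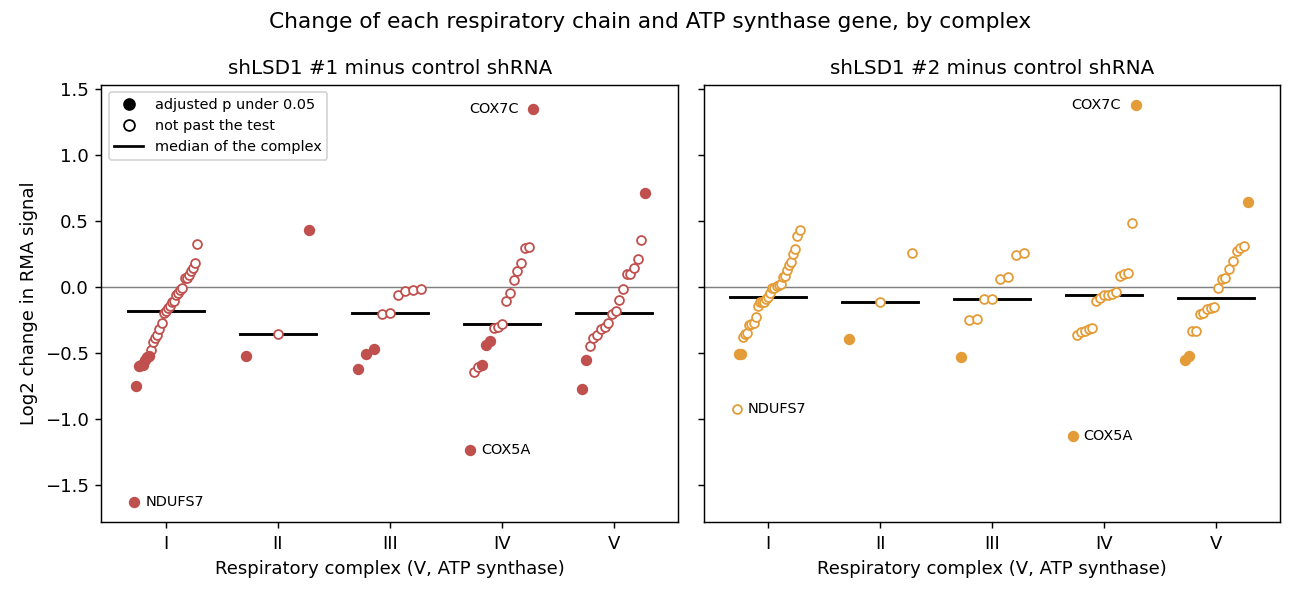
Log2 change in RMA signal of each of the 78 genes (y axis) by respiratory complex (x axis), for shLSD1 #1 (left) and shLSD1 #2 (right), each minus control shRNA. Filled points passed the adjusted threshold, open points did not, and bars are medians; COX7C stands at 1.35 and 1.38 and COX5A at -1.24 and -1.13, apart from the other members of complex IV.

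Complex I is the NADH dehydrogenase and the largest complex of the chain. It had 8 members lower (25.8%) and 0 higher with shLSD1 #1, and 2 lower (6.45%) and 0 higher with shLSD1 #2. Of clusters with a mean above the negative controls, 14.7% and 12.1% were lower with these hairpins, and 13.8% and 12% higher. At an unadjusted p under 0.05, 12 members (38.7%) were lower and 1 (3.23%) higher with shLSD1 #1, and 7 (22.6%) lower and 2 (6.45%) higher with shLSD1 #2. The shares of those clusters were 22.9% and 19.8% lower, and 22.4% and 21.2% higher. The median log2 change was -0.18 with shLSD1 #1 and -0.080 with shLSD1 #2. NDUFB8, an accessory subunit of the membrane arm that is lost when complex I fails to assemble, had signals of 11.72, 11.85 and 11.62 on shLSD1 #1 arrays, 11.88, 11.86 and 12.18 on shLSD1 #2 arrays, and 12.51, 12.50 and 12.42 on control arrays. Every hairpin array lay below every control array. NDUFB8 fell by 0.75 ± 0.13 with shLSD1 #1 and by 0.51 ± 0.13 with shLSD1 #2 (log2, SE, n = 3 per group, limma adjusted p = 0.00337 and 0.0263), which is 1.68-fold and 1.42-fold lower. Its shLSD1 #2 call ended without any 1 of control replicates 1 to 3 or shLSD1 #2 replicates 7 and 8 (adjusted p = 0.0584 to 0.0916).

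NDUFA1, a small X-linked subunit of the membrane arm, had signals of 11.54, 11.47 and 11.60 with shLSD1 #1, 11.55, 11.61 and 11.60 with shLSD1 #2, and 12.11, 12.15 and 12.02 with control shRNA. The 6 hairpin arrays lay close together and below all control arrays. NDUFA1 fell by 0.56 ± 0.10 and by 0.51 ± 0.10 (limma adjusted p = 0.0053 and 0.00989), and both calls held when any 1 array was left out. The shLSD1 #1 call ended with spike-in class as a block (-0.60, adjusted p = 0.180) and the shLSD1 #2 call on the arrays of high spike-in signal alone (-0.52, 0.0625).

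The other complex I members that fell with shLSD1 #1 were NDUFA7, NDUFA10, NDUFA11, NDUFB2, NDUFB11 and NDUFS7. With shLSD1 #1 the accessory subunits NDUFA7, NDUFA11 and NDUFB2 changed by -0.59, -0.60 and -0.53. Their shLSD1 #2 values of -0.35, -0.36 and -0.29 did not pass (limma adjusted p between 0.0959 and 0.125). NDUFB11, a membrane-arm subunit encoded on the X chromosome, changed by -0.59 ± 0.14 with shLSD1 #1 and had -0.11 ± 0.14 with shLSD1 #2. NDUFA10, an accessory subunit with a fold like that of nucleoside kinases, changed by -0.54 with shLSD1 #1 and had -0.28 with shLSD1 #2. Without 1 array, the shLSD1 #1 calls of NDUFB11 (replicates 2, 3 or 4) and NDUFA10 (any of replicates 2 to 7) ended, at adjusted p of 0.0591 to 0.121.

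NDUFS7 is the core subunit that carries the iron-sulfur cluster next to the ubiquinone site. Its signals were 5.89, 5.93 and 5.29 with shLSD1 #1, 6.79, 5.77 and 6.67 with shLSD1 #2, and 7.45, 7.48 and 7.08 with control shRNA. Every hairpin array lay below every control array, and control replicate 1 alone exceeded the negative controls. Measured means were 5.70 ± 0.36 with shLSD1 #1, 6.41 ± 0.56 with shLSD1 #2 and 7.34 ± 0.22 with control shRNA (SD, n = 3 each), with limma adjusted p = 0.00377 for shLSD1 #1 and 0.0585 for shLSD1 #2. No fold is given, since the control mean was itself not above the negative control percentiles of the control arrays.

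Members of complex I differed among themselves. Its 4 core subunits had medians of -0.19 and -0.081. Beside NDUFS7 these were NDUFV1, which binds NADH and the flavin, with changes of -0.010 and -0.12, NDUFS3, a subunit of the matrix arm, with -0.061 and 0.0085, and NDUFV2, which carries an iron-sulfur cluster, with -0.32 and -0.04. NDUFS6, a zinc-binding subunit of the matrix arm, had the highest mean of both changes in this complex, with 0.32 ± 0.097 and 0.25 ± 0.097. It missed the threshold with shLSD1 #1 by a narrow margin (limma adjusted p = 0.0502) and had adjusted p = 0.133 with shLSD1 #2. The 4 accessory subunits with NDUFS or NDUFV symbols, NDUFS4, NDUFS5, NDUFS6 and NDUFV3, had a median of 0.021 and 0.12, whereas the 12 with NDUFB or NDUFC symbols had -0.32 and -0.13. None of these 4 passed, and 1 was higher at an unadjusted p under 0.05 with each hairpin.

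Complex II, succinate dehydrogenase, also works in the TCA cycle, and 3 of its genes were measured. SDHD, which with SDHC anchors the enzyme in the membrane, had signals of 10.53, 10.38 and 10.43 with shLSD1 #1, 10.59, 10.54 and 10.59 with shLSD1 #2, and 10.97, 11.01 and 10.94 with control shRNA. No hairpin array reached a control array. SDHD fell by 0.52 ± 0.10 and by 0.40 ± 0.10 (limma adjusted p = 0.00679 and 0.0291), and the shLSD1 #2 call ended without replicate 1, 2, 3, 7, 8 or 9 (0.0614 to 0.0942). RefSeq lists 7 pseudogenes under the name of SDHD, and probes may read such copies. Other genes named here share this limit, among them ATP5MC1 and ATP5MG with 8 each, NDUFB8 with 3 and COX5A with 2. For NDUFA1, UQCR11, ATP5F1D and ATP5ME it lists 0.

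SDHA, the flavoprotein that oxidizes succinate, went the other way. Its signals were 12.48, 12.42 and 12.50 with shLSD1 #1, 12.23, 12.39 and 12.25 with shLSD1 #2, and 12.13, 12.05 and 11.93 with control shRNA, with no overlap between hairpin and control arrays. SDHA rose by 0.43 ± 0.11 with shLSD1 #1 (limma adjusted p = 0.0239) and had 0.25 ± 0.11 with shLSD1 #2 (adjusted p = 0.172). The shLSD1 #1 call ended without replicate 2, 3, 4 or 6 (0.0657 to 0.0856). SDHC had -0.36 and -0.12, past the threshold with neither hairpin.

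Complex III is the cytochrome bc1 complex. It had 3 of 9 members lower (33.3%) and 0 higher with shLSD1 #1, and 1 lower (11.1%) and 0 higher with shLSD1 #2. Of clusters with a mean above the negative controls, 14.7% and 12.1% were lower with these hairpins, and 13.8% and 12% higher. At an unadjusted p under 0.05, 3 members were lower and 0 higher with shLSD1 #1, and 1 lower and 1 higher with shLSD1 #2. The shares of those clusters were 22.9% and 19.8% lower, and 22.4% and 21.2% higher. UQCR11, a small subunit of the complex, had signals of 12.94, 13.07 and 13.05 with shLSD1 #1, 13.20, 12.80 and 13.35 with shLSD1 #2, and 13.54, 13.75 and 13.65 with control shRNA. The groups did not overlap, and shLSD1 #2 replicate 9 came closest to the controls. UQCR11 fell by 0.62 ± 0.15 and by 0.53 ± 0.15 (limma adjusted p = 0.0196 and 0.0439). The shLSD1 #1 call ended without replicate 2, 3 or 4 (0.0569 to 0.0706) and the shLSD1 #2 call without any 1 of replicates 1 to 8 (0.0592 to 0.138).

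CYC1, cytochrome c1, which hands electrons to cytochrome c, changed by -0.51 ± 0.11 with shLSD1 #1 (limma adjusted p = 0.0126) and had -0.24 ± 0.11 with shLSD1 #2 (adjusted p = 0.202). UQCRQ, a small subunit near the ubiquinone site, changed by -0.47 with shLSD1 #1, a call that ended without replicate 1, 2, 3, 4 or 6 (0.0641 to 0.0930), and had -0.25 with shLSD1 #2. The core proteins UQCRC1 and UQCRC2, which hold the matrix side of the complex, had -0.032 and -0.059 with shLSD1 #1 and 0.24 and -0.089 with shLSD1 #2. UQCRHL, a retrocopy close to UQCRH whose probes may read both, had -0.015 and 0.25 and passed with neither hairpin. Its shLSD1 #1 value turned positive with a second quantile normalization (0.015) and without replicate 3 (0.058) or 6 (0.080).

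Complex IV, cytochrome c oxidase, held both the largest fall and the largest rise among members above background on all arrays. It had 4 of 17 members lower (23.5%) and 1 higher (5.88%) with shLSD1 #1. With shLSD1 #2 it had 1 lower and 1 higher (5.88% each). Clusters with a mean above the negative controls were lower in 14.7% and 12.1%, and higher in 13.8% and 12%. At an unadjusted p under 0.05, 9 members (52.9%) were lower and 1 higher with shLSD1 #1. With shLSD1 #2, 5 (29.4%) were lower and 2 (11.8%) higher. Those clusters had 22.9% and 19.8% lower, and 22.4% and 21.2% higher. COX7C, a small subunit with a single membrane span, had signals of 14.30, 14.31 and 14.39 with shLSD1 #1, 14.37, 14.43 and 14.28 with shLSD1 #2, and 13.07, 12.91 and 12.96 with control shRNA. All 6 hairpin arrays lay more than 1 log2 unit above every control array. COX7C rose by 1.35 ± 0.11 and by 1.38 ± 0.11 (limma adjusted p = 4.47e-05 and 3.76e-05), which is 2.55-fold and 2.60-fold higher. It passed in every alternative tried, including the block for spike-in class (1.25 and 1.35, adjusted p = 0.0192 and 0.000361). RefSeq lists 4 COX7C pseudogenes, which probes for COX7C may also read.

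COX5A, a matrix-facing subunit of the early assembly steps of complex IV, had signals of 12.75, 13.03 and 12.84 with shLSD1 #1, 12.94, 12.79 and 13.20 with shLSD1 #2, and 13.98, 14.11 and 14.23 with control shRNA. The highest hairpin array was 0.78 below the lowest control array. COX5A fell by 1.24 ± 0.14 and by 1.13 ± 0.14 (limma adjusted p = 0.000406 and 0.000736), which is 2.36-fold and 2.19-fold lower. Both calls held when any 1 array was left out. With that block the changes were -0.95 and -1.04, and the shLSD1 #1 call ended (adjusted p = 0.103) while that of shLSD1 #2 did not (0.00401).

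The other complex IV members that passed did so with shLSD1 #1. COX7B, a small membrane subunit, changed by -0.59 ± 0.11 (limma adjusted p = 0.00525) and had -0.36 ± 0.11 with shLSD1 #2 (adjusted p = 0.0545). COX5B, which binds zinc on the matrix side, changed by -0.44 with shLSD1 #1 and had -0.088 with shLSD1 #2, and COX6A1, the isoform found in most tissues, changed by -0.41 against a shLSD1 #2 value of -0.31. Calls for COX5B (without replicate 1, 2, 3, 4 or 6) and COX6A1 (without any array but replicate 8) ended at adjusted p of 0.0511 to 0.107. COX4I1, the main form of subunit IV and the site where ATP acts on the enzyme, had signals of 10.54, 10.97 and 10.18 with shLSD1 #1, 11.16, 10.82 and 11.38 with shLSD1 #2, and 11.21, 11.11 and 11.20 with control shRNA. Its values spread widely within each hairpin group, and with changes of -0.61 ± 0.21 and -0.051 ± 0.21 it passed with neither (adjusted p = 0.0779 and 0.913).

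Complex IV has isoforms that replace the common subunits in certain tissues. The hypoxia- and lung-linked COX4I2, the testis-linked COX6B2, COX7B2 and COX8C and the muscle-linked COX7A1 stayed under the negative controls on every array, with values of 3.23 to 5.91. COX6A2, the isoform of heart and skeletal muscle, was above the negative controls on all 9 arrays. It had 7.95, 7.70 and 8.42 with shLSD1 #1, 8.26, 8.07 and 7.90 with shLSD1 #2, and 8.20, 7.95 and 7.77 with control shRNA, and the groups overlapped. None of the 6 isoforms passed the test with either hairpin, and at an unadjusted p under 0.05 1 was lower with shLSD1 #1 and 1 higher with shLSD1 #2.

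**Figure D2:**
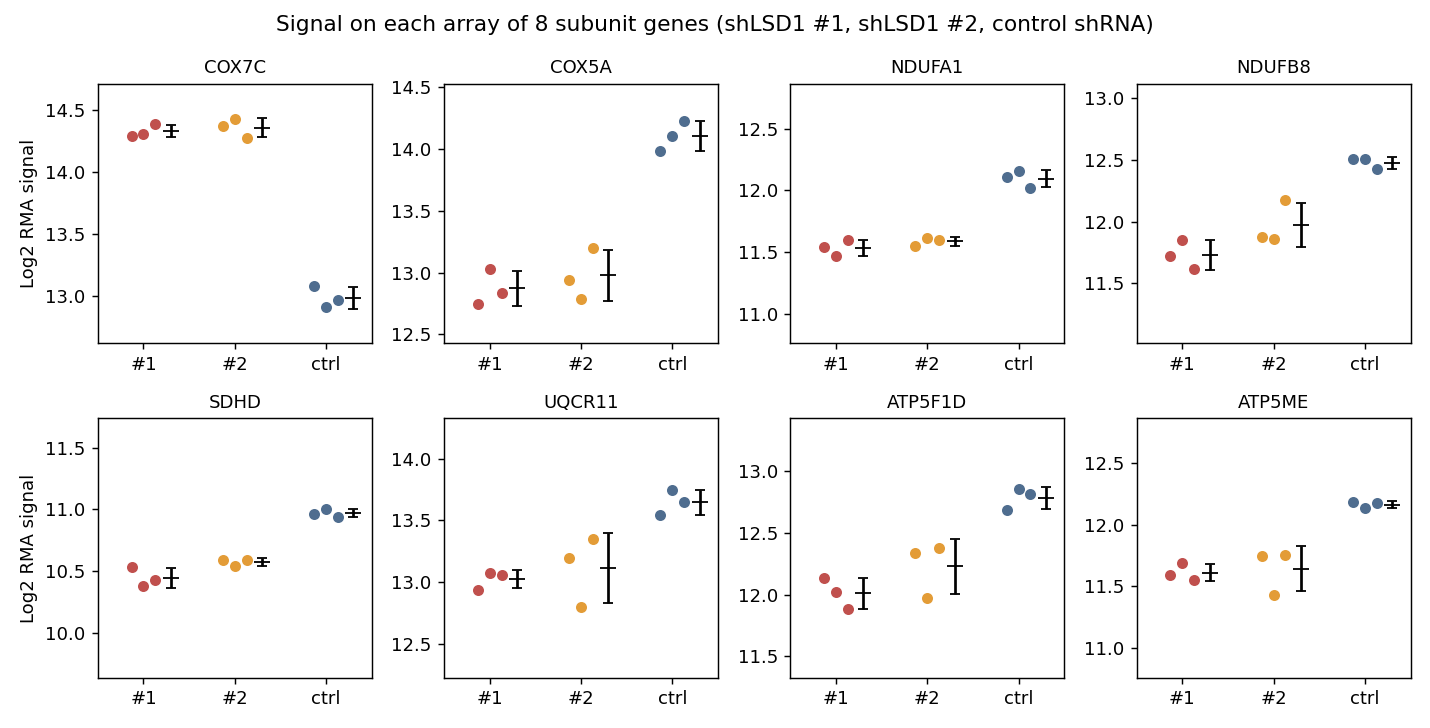
Log2 RMA signal (y axis, the same span in each panel) of 8 subunit genes above background on each array of shLSD1 #1, shLSD1 #2 and control shRNA (ctrl), with the group mean and SD beside the points (n = 3). COX7C is higher on all 6 hairpin arrays, and the other 7 genes are lower on all 6 than on any control array.

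Complex V, the ATP synthase, had 2 members lower (11.1%) and 1 higher (5.56%) with each hairpin. Of clusters with a mean above the negative controls, 14.7% were lower and 13.8% higher with shLSD1 #1, and 12.1% and 12% with shLSD1 #2. At an unadjusted p under 0.05, 8 members (44.4%) were lower and 2 (11.1%) higher with shLSD1 #1. With shLSD1 #2, 3 (16.7%) were lower and 4 (22.2%) higher. The shares of those clusters were 22.9% and 19.8% lower, and 22.4% and 21.2% higher. ATP5F1D, the delta subunit of the central stalk, had signals of 12.13, 12.02 and 11.88 with shLSD1 #1, 12.33, 11.98 and 12.38 with shLSD1 #2, and 12.68, 12.85 and 12.82 with control shRNA. All hairpin arrays were below the controls, and shLSD1 #2 replicate 8 was the lowest of its group. ATP5F1D fell by 0.77 ± 0.14 and by 0.56 ± 0.14 (limma adjusted p = 0.00477 and 0.0271), or 1.71-fold and 1.47-fold. The shLSD1 #2 call ended without replicate 1, 2, 3 or 8 (0.0507 to 0.0908).

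ATP5ME, subunit e, which helps hold ATP synthase dimers in the membrane, had signals of 11.59, 11.69 and 11.55 with shLSD1 #1, 11.74, 11.43 and 11.75 with shLSD1 #2, and 12.18, 12.13 and 12.17 with control shRNA. The control arrays were tight and stood above all hairpin arrays. ATP5ME fell by 0.55 ± 0.12 and by 0.52 ± 0.12 (limma adjusted p = 0.0124 and 0.0189), and the shLSD1 #2 call ended without replicate 1, 2, 3 or 8 (0.0525 to 0.0609). ATP5MG, subunit g, a neighbour of subunit e in the membrane, had the highest mean of both changes among the members of complex V above background, at 0.36 ± 0.12 and 0.31 ± 0.12 and passed with neither hairpin (adjusted p = 0.0701 and 0.124).

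The c-ring, the rotor that protons turn, is built of a single mature protein encoded by ATP5MC1, ATP5MC2 and ATP5MC3, which differ in their import signals. ATP5MC1 had signals of 15.57, 15.78 and 15.54 with shLSD1 #1, 15.67, 15.57 and 15.75 with shLSD1 #2, and 15.95, 16.02 and 16.02 with control shRNA. ATP5MC2 had 15.39, 15.04 and 15.22 with shLSD1 #1, 15.48, 15.31 and 15.40 with shLSD1 #2, and 15.63, 15.57 and 15.62 with control shRNA. ATP5MC3 had 13.13, 12.87 and 12.99 with shLSD1 #1, 13.05, 13.20 and 13.15 with shLSD1 #2, and 13.20, 13.31 and 13.39 with control shRNA. In all 3 genes the hairpin arrays lay below the control arrays, with log2 changes of -0.37, -0.39 and -0.30 with shLSD1 #1 and -0.33, -0.21 and -0.17 with shLSD1 #2. By limma 0 of the 3 passed with either hairpin (adjusted p = 0.0558 to 0.428). At an unadjusted p under 0.05, 3 were lower with shLSD1 #1 and 1 with shLSD1 #2. The shares given above were 14% and 12.3% of all clusters, and 22.9% and 19.8% of those with a mean above the negative controls. Groups that do not overlap on the lower side were found in 16.8% and 15.3% of all clusters, and in 27.7% and 25.2% of the latter.

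ATP5IF1, the inhibitor that stops ATP synthase from consuming ATP, had signals of 12.45, 12.84 and 12.36 with shLSD1 #1, 12.38, 12.76 and 12.85 with shLSD1 #2, and 13.04, 12.96 and 13.00 with control shRNA. Its hairpin arrays lay below the controls but spread widely, and the changes of -0.45 ± 0.16 and -0.34 ± 0.16 did not pass (limma adjusted p = 0.0982 and 0.237). The catalytic head subunits ATP5F1A and ATP5F1B had -0.19 and 0.14 with shLSD1 #1 and -0.16 and 0.28 with shLSD1 #2. The 4 peripheral stalk genes ATP5PB, ATP5PD, ATP5PF and ATP5PO, which hold the head still, had medians of -0.054 and 0.10 and 0 calls with either hairpin, and at an unadjusted p under 0.05 1 was lower with shLSD1 #1 and 1 higher with shLSD1 #2. The member that rose was ATP5MGL, a paralogue of ATP5MG, and its signal stayed under the negative controls on every array, so no fold is given. It had 5.41, 5.59 and 5.24 with shLSD1 #1, 5.36, 5.62 and 5.05 with shLSD1 #2, and 4.59, 4.93 and 4.58 with control shRNA (limma adjusted p = 0.0224 and 0.0404), and leaving out 1 array ended the shLSD1 #1 call (replicate 1, 3, 4 or 5) and the shLSD1 #2 call (replicate 1, 3, 4, 7 or 8), at 0.0601 to 0.131. The readthrough transcript ATP5MF-PTCD1 was also below the negative controls on every array.

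The shift of the members was seen array by array. The median difference from the control mean of each gene was -0.21, -0.14 and -0.25 on shLSD1 #1 arrays and -0.059, -0.12 and -0.030 on shLSD1 #2 arrays, while control arrays lay between -0.0066 and 0.012. All 6 hairpin arrays were below all control arrays, but control arrays are held near 0 because they define the control mean. Within shLSD1 #2, replicate 8, its single array of low spike-in signal, was the lowest, and its value was closest to the shLSD1 #1 arrays. By complex, replicate 8 was the lowest of its group in complexes I, II, IV and V. In complex III it was the highest (-0.016, against -0.107 and -0.0999 for replicates 7 and 9). The part of the spike-in class in the shift was not tested beyond the block. Over the clusters whose mean lay above the negative controls, the same median was between -0.029 and 0.043 on the 6 hairpin arrays.

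**Figure D3:**
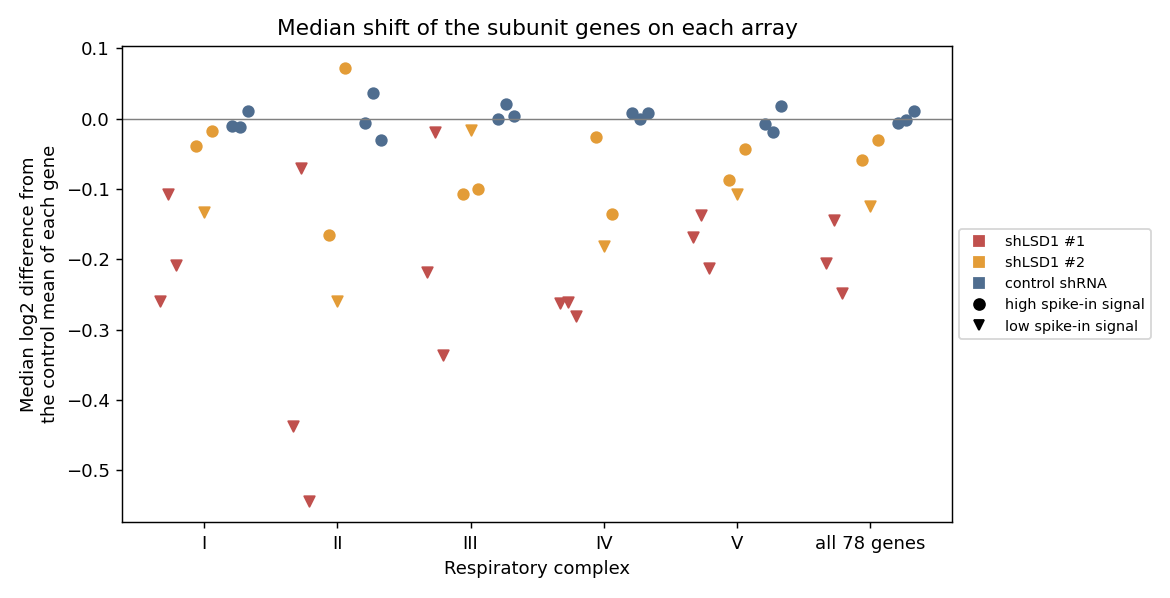
Median log2 difference of the genes of each complex, and of all 78 genes, from the control mean of each gene (y axis), for each array; triangles are arrays of low and circles of high spike-in signal. For all 78 genes the shLSD1 #1 arrays lie at -0.25 to -0.14 and the shLSD1 #2 arrays at -0.12 to -0.030; control arrays lie near 0 because they define the control mean.

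The medians of all 5 complexes were below 0, and members spread widely within them. The median log2 changes with shLSD1 #1 were -0.18, -0.36, -0.20, -0.28 and -0.20 for complexes I, II, III, IV and V, and with shLSD1 #2 -0.080, -0.12, -0.089, -0.065 and -0.081. Complex II rests on 3 genes that moved both ways. Complex IV includes 6 tissue-linked isoforms, 5 of them below background on every array. Its other 11 members had medians of -0.31 and -0.11. The spread of members within complex IV, from -1.24 to 1.35 among those above background with shLSD1 #1, was much wider than the differences between complexes.

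The direct comparison of the hairpins shares no control array. By limma 0 members differed between shLSD1 #1 and shLSD1 #2, as did 0% of all clusters, with a smallest adjusted p among members of 0.508. At an unadjusted p under 0.05, 9 members (11.5%) differed, against 7.87% of all clusters and 9.26% of those with a mean above the negative controls. All 9 were lower with shLSD1 #1, against 3.79% and 4.77% of these clusters: NDUFA13, NDUFB9, NDUFB11, NDUFS7, CYC1, UQCRC1, COX4I1, COX5B and ATP5PO, named after their values were seen. Of the 78 members, 63 (80.8%) had a lower mean with shLSD1 #1, against 49.8% of all clusters, and the median difference was -0.12, against 0.00093 for all clusters. All shLSD1 #1 arrays are of low spike-in signal and 2 of the 3 shLSD1 #2 arrays of high signal, and the part of this in the difference was not tested. The 95% interval of the difference lay within 1 log2 unit of 0 for 76 members, the exceptions being NDUFS7 and COX4I1. For COX7C it ran from -0.27 to 0.21 and for COX5A from -0.42 to 0.21.

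Genes that build and serve the respiratory chain were counted beside the subunits. Across these lists 0% to 18.2% of genes rose and 5.26% to 17.4% fell with shLSD1 #1. With shLSD1 #2, 5.26% to 17.4% rose and 0% to 9.09% fell. Of clusters with a mean above the negative controls, 13.8% were higher and 14.7% lower with shLSD1 #1, and 12% and 12.1% with shLSD1 #2. None of these lists had a median as low as that of the subunits with shLSD1 #1 (-0.20), and their medians ran from -0.14 to 0.26. With shLSD1 #2 they ran from -0.089 to 0.20, and the list of adenine nucleotide, phosphate and outer membrane transport (-0.089) was as low as the subunits (-0.084). Among 19 complex I assembly factors, 2 rose and 1 fell with shLSD1 #1, and 1 rose and 1 fell with shLSD1 #2. TIMMDC1, which helps build the membrane arm, changed by -0.89 and -0.57, and NDUFAF4, an early assembly factor, by 0.47 and 0.74. NDUFAF7, a methyltransferase, changed by 0.60 with shLSD1 #1 and had 0.50 with shLSD1 #2. Among 17 assembly factors of complexes II, III and V, 1 fell with shLSD1 #1 and 1 rose with shLSD1 #2. These were UQCC3, an assembly factor of complex III, at -0.79 and -0.23, and SDHAF2, which helps attach the flavin to SDHA, at 0.28 and 0.44.

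Assembly and copper delivery for complex IV had 3 higher and 4 lower of 23 with shLSD1 #1, and 4 higher and 2 lower with shLSD1 #2. CMC1, an early assembly factor of this complex, changed by -0.99 and -0.81, its relative CMC2 by 0.58 and 0.75, and COX11, which delivers copper, by 0.52 and 0.60. Of 21 genes of ubiquinone, cytochrome c and electron-transfer flavoprotein, 3 rose and 3 fell with shLSD1 #1, and 3 rose and 1 fell with shLSD1 #2. SQOR, which feeds electrons from sulfide to ubiquinone, changed by -1.33 and -1.31, and COQ7, a hydroxylase of ubiquinone synthesis, by 0.74 and 0.63. COQ8B, a kinase-like factor of the same pathway, changed by -1.09 with shLSD1 #1 and had -0.94 with shLSD1 #2.

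Of 16 genes of pyruvate dehydrogenase and the TCA cycle, 1 rose and 2 fell with shLSD1 #1, and 1 rose and 1 fell with shLSD1 #2. IDH2, the mitochondrial NADP-dependent isocitrate dehydrogenase, rose by 1.49 and 1.24. SUCLG2, the GTP-forming subunit of succinyl-CoA ligase, was at least 2.10-fold and 2.11-fold lower (limma adjusted p = 0.000554 and 0.000259). For this bound the hairpin arrays, all below background, were set to the negative control percentile. SUCLG1, its partner, changed by -0.43 with shLSD1 #1 and had -0.13 with shLSD1 #2. In the list of adenine nucleotide, phosphate and outer membrane transport, 1 of 12 rose and 2 fell with shLSD1 #1, and 1 rose and 1 fell with shLSD1 #2. SLC25A4, an ADP/ATP carrier that exports the ATP made by complex V, rose by 1.44 and 1.65. UCP2, an inner membrane carrier, changed by -0.51 with shLSD1 #1 and had -0.33 with shLSD1 #2, and CKMT1A, which passed on the lower side, stayed under the negative controls on every array.

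Among 22 genes of mitochondrial transcription, DNA maintenance and nuclear control, 4 rose and 3 fell with shLSD1 #1, and 3 rose and 2 fell with shLSD1 #2. MTERF3, a regulator of mitochondrial ribosome assembly, changed by 0.88 with shLSD1 #1 and had 0.69 with shLSD1 #2. MGME1, a mitochondrial DNA exonuclease, changed by -0.68 and -0.65, and NFE2L2, a regulator of antioxidant genes, by -0.56 and -0.55. TFAM, which packages and transcribes mitochondrial DNA, changed by 0.54 and 0.55, and GABPA, the DNA-binding part of GABP, by 0.38 and 0.42, both named after their values were seen. The factor NRF1 had 0.20 and 0.050 and passed with neither hairpin (limma adjusted p = 0.353 and 0.865). PPARGC1A and PPARGC1B, coactivators of mitochondrial biogenesis, stayed under the negative controls on every array.

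In the list of protein import and cristae, 4 of 32 rose and 2 fell with shLSD1 #1, and 5 rose and 1 fell with shLSD1 #2. The import proteins TIMM8A, TIMM21 and TOMM5 rose by 1.41 and 1.63, 1.11 and 0.86, and 0.85 and 0.98. Of 74 mitochondrial ribosomal proteins, 4 rose (5.41%) and 5 fell (6.76%) with shLSD1 #1, and 5 rose (6.76%) and 2 fell (2.7%) with shLSD1 #2. All of these shares were below those of clusters with a mean above the negative controls. MRPL39 changed by 0.74 and 0.78, MRPS9 by 0.79 and 0.64, and MRPS27 by -0.90 and -0.58. Leaving out 1 array ended 13 of the shLSD1 #1 calls named in these lists and 10 of the shLSD1 #2 calls, at adjusted p of 0.0503 to 0.160, and each of the 9 arrays ended at least 1. With spike-in class as a block, IDH2 and SLC25A4 alone of the genes named from these lists passed with shLSD1 #1. With shLSD1 #2, the same block kept 12 of 22 named calls and ended 10 (adjusted p = 0.0505 to 0.142), those of TIMMDC1, SDHAF2, COQ7, MGME1, NFE2L2, TFAM, GABPA, CKMT1A, MRPS9 and MRPS27.

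**Figure D4:**
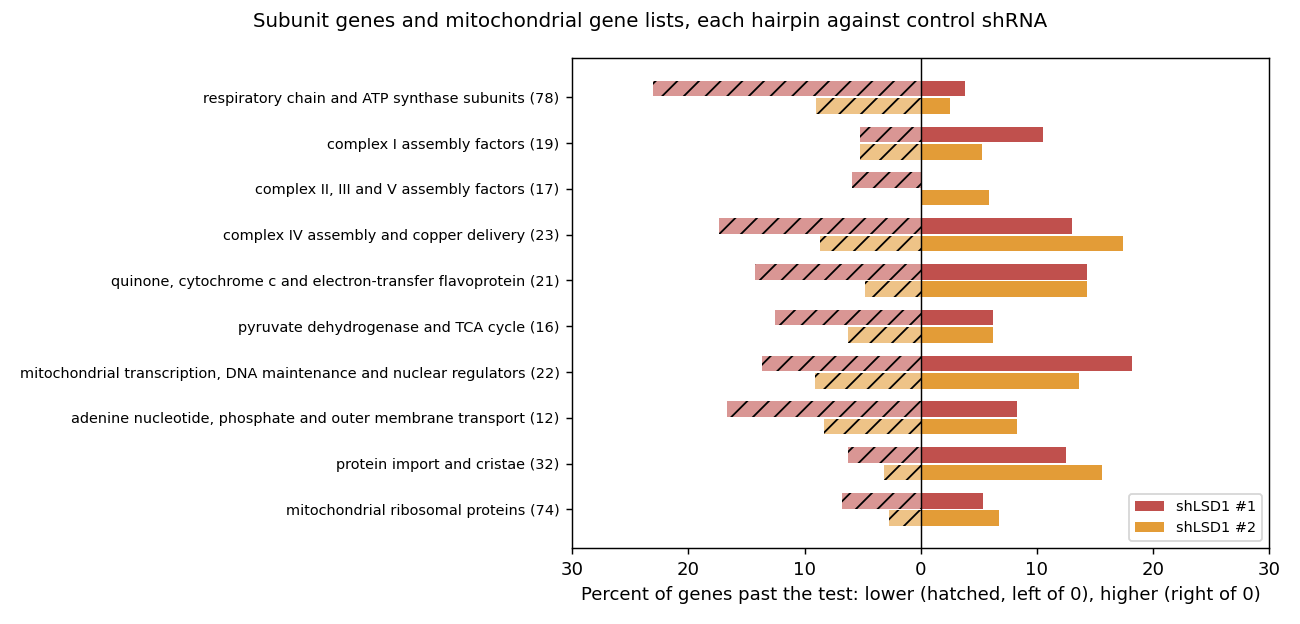
Percent of genes past the adjusted threshold (x axis, hatched bars left of 0 for lower, plain bars right of 0 for higher) in the 78 subunit genes and in 9 lists of other mitochondrial genes (y axis, number of genes in brackets), for shLSD1 #1 and shLSD1 #2 against control shRNA. The longest bar is the 23.1% of subunit genes lower with shLSD1 #1; the shLSD1 #2 bar of the subunits is 8.97%.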

How the data were processed

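The authors' deposited values are log2 signals per transcript cluster, made by RMA in Affymetrix Expression Console 1.4, per the submitters' processing notes. Base 2, which RMA uses by default, was assumed, since no source used here names it, and the same holds for library files and genome build. Of 24351 rows per array, 2903 were control probes. The other 21448 clusters were tested with no filter. Symbols came from the platform annotation, in which 17709 clusters had 1 symbol, 3739 none and 0 several.

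A single limma fit (lmFit, eBayes without trend, limma 3.58.1, R 4.3.3) covered the 3 groups, with Benjamini-Hochberg adjustment over all clusters and a threshold of 0.05. It was also run on simulated data with independent noise and no effect of spike-in class, which cannot test the part of that class. Members, lists and tests were chosen with earlier results of these data known. Named were all members past the test with either hairpin, the highest and lowest of each complex, chosen isoforms, and per list up to 3 genes past the test. NDUFA4 is not analysed here. Other members given with values, such as NDUFV1, were chosen after their values were seen. The looser NRF1 motif was replaced after its counts were seen. Alternatives were other normalizations, filters, priors and weights, fits of the groups compared, a block for spike-in class, arrays of high spike-in signal, and each array left out. RMA equalizes the distributions of the arrays, so a shift common to all genes would not be seen. Arrays give no read depth, and their number limits the precision. Figures used matplotlib 3.10.9.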

Additional observations from a re-analysis of the deposited data

How the results depend on the processing

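No paired analysis was possible because the groups share no replicate numbers. COX7C passed with both hairpins in every alternative tried. COX5A passed in all of them except, for shLSD1 #1, the block for spike-in class. No alternative called a member between the hairpins. With shLSD1 #1, the count lower was 33 with a trended robust prior and 0 with the block, and 12 to 22 when 1 array was left out. The count higher was 5 with a second quantile normalization, without the dimmest clusters or at an adjusted threshold of 0.1, 7 with the trended prior, 1 with the block, and 1 to 3 with 1 array left out. With shLSD1 #2, the count lower was 14 without the dimmest clusters, 18 with the trended prior, 2 with the block, 1 on arrays of high spike-in signal and 13 at the threshold of 0.1, and 2 to 6 with 1 array left out. The count higher was 8 with the trended prior, 1 with only the groups compared, with the block, on high arrays or among members above background on all arrays, and 1 to 3 with 1 array left out. The median over members stayed between -0.24 and -0.16 with shLSD1 #1 and between -0.10 and -0.045 with shLSD1 #2 in every alternative, including omission of each array (-0.24 to -0.17 and -0.090 to -0.045). By complex, shLSD1 #1 medians beyond the replicate SD were -0.21 for complex IV with a second quantile normalization, and -0.15, -0.053 and -0.16 for complexes II, IV and V with the block. For shLSD1 #2, complex V had -0.039 with the second quantile normalization. With 1 array left out, shLSD1 #1 medians ran from -0.25 to -0.13 for complex I and from -0.24 to -0.17 for complex V, and shLSD1 #2 medians from -0.13 to -0.065 for complex IV and from -0.11 to -0.031 for complex V. Moves by over 1.5 times with 1 array left out were, for shLSD1 #2, without replicate 8 in all members (-0.045), complex I (-0.031) and complex II (-0.046), without replicate 9 in complexes II (-0.21), III (-0.029) and IV (-0.11), without replicate 7 in complexes III (-0.058), IV (-0.13) and V (-0.050), without replicate 2 in complexes II (-0.077) and V (-0.037), and without replicate 3 in complexes IV (-0.12) and V (-0.031). For shLSD1 #1, complex III moved so without replicate 6 (-0.12). The NDUFB11 value for shLSD1 #2 became 0.0070 with the block, and on high arrays, and ran from -0.20 to 0.0070 with 1 array left out. The UQCRHL value for shLSD1 #1 became 0.015 with a second quantile normalization and ran from -0.083 to 0.080 with 1 array left out. The causes were not tested, beyond fewer arrays or tests in some fits. With 3 arrays per group the median half-width of a member's 95% interval was 0.28, and the smallest called change was -0.40 (SDHD, shLSD1 #2).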

Other observations

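Members were grouped by chromosome after their values were seen, with no test. Among members whose mean lay above the negative controls, 7 are on chromosome 19 by RefSeq annotation: NDUFA7, NDUFA11, NDUFA13, NDUFB7, UQCR11, COX6B1 and ATP5F1D. All 7 had negative changes with both hairpins, with a median of -0.59 with shLSD1 #1 and -0.35 with shLSD1 #2. Of all 70 such members, 56 had negative changes with shLSD1 #1 and 44 with shLSD1 #2. The other 63 such members had medians of -0.19 and -0.065. Over all 590 named clusters of chromosome 19 with a mean above the negative controls, the median was -0.069 and -0.027. Of the 7 genes, 4 were called lower with shLSD1 #1 and 2 with shLSD1 #2, against 14.9% and 10.2% of those 590 clusters. The 3 members on chromosome X, COX7B, NDUFA1 and NDUFB11, had medians of -0.59 and -0.36. Of these, 3 were called lower with shLSD1 #1 and 1 with shLSD1 #2, against 13.4% and 10.1% of such clusters of this chromosome. The 2 on chromosome 10, ATP5F1C and NDUFB8, had -0.42 and -0.26, and chromosome 15 held COX5A alone. All 5 members on chromosome 2 also had negative changes with both hairpins (medians -0.39 and -0.17). So did the 2 on chromosome 17 (-0.34 and -0.27) and the 2 on chromosome 18 (-0.25 and -0.10). Some other chromosomes went the other way. The 6 members on chromosome 5 had medians of 0.20 and 0.16, and the 3 on chromosome 21 had 0.065 and 0.17. Members on chromosomes 1, 3 and 9 had negative medians with shLSD1 #1 and 0.070, 0.19 and 0.20 with shLSD1 #2.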
